A study of Mus musculus with 32 samples.

Results

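The IL-6 family of cytokines and its signalling genes were followed through 32 tumours that grew in Balb/c mice from BNL-MEA, a cultured liver cancer line of the mouse. The cytokines of this family bind receptors that share the chain gp130, the product of Il6st. Ligand binding activates JAK kinases, which phosphorylate the transcription factor STAT3, and STAT3 in turn raises Socs3, an inhibitor that shuts the receptor down. In the liver this pathway drives the acute phase response, in which hepatocytes secrete serum amyloid, fibrinogen and similar proteins. In tumours its ligands come from immune, stromal and cancer cells.

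The members were listed by name as ligands, receptors and signalling genes of the family, and the rule sets no threshold on a measured value: 10 of the 54446 genes in the count tables. They are the ligands Il6, Il11, Lif and Osm, the receptor chains Il6ra, Il6st, Lifr and Osmr, the transcription factor Stat3 and the feedback inhibitor Socs3. All 10 passed the filter on low counts in every fit.

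The tumours came from 3 experiments, each with its own vehicle group and its own batch code in the labels. In the dose experiment mice received vehicle (4 tumours), the multikinase inhibitor regorafenib at 5 mg/kg/day (low dose, 3 tumours) or regorafenib at 20 mg/kg/day (high dose, 3 tumours). In the DC-101 experiment they received vehicle (4), regorafenib at 5 mg/kg/day (3) or DC-101 (3), an antibody that blocks the VEGF receptor VEGFR2, injected intraperitoneally at 800 µg on days 1, 3 and 5. In the anti-PD1 experiment they received vehicle, regorafenib at 5 mg/kg/day, anti-PD1, an antibody against the T cell checkpoint receptor PD-1, or regorafenib with anti-PD1 (3 tumours each). All groups shared the same host strain and tumour line. The age of the mice is not given in the sources used here. The cells were implanted under the capsule of the left liver lobe, so a sample of tumour could hold adjoining liver. Comparisons within an experiment share tumours, the vehicle group above all. Every p-value sets a change against the spread between tumours within groups, which is estimated over all groups of a fit and moderated across genes. The labels number the tumours but do not say that each came from a separate mouse.

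Total counts per tumour were between 16.8 M and 27.7 M. The labelled tissue was hepatocellular carcinoma. Of its markers, Afp had a median of 0.438 CPM (the count of a gene over the scaled library size) over the 32 tumours and Gpc3 1.5 CPM, while the epithelial genes Krt19, Epcam, Cdh1, Krt8 and Krt18 had medians of 2.65, 3.04, 13.6, 45.6 and 49.7 CPM, the proliferation gene Mki67 347 CPM and the mesenchymal gene Vim 5580 CPM. Afp stayed at or below 3.54 CPM and Gpc3 ranged up to 22.3 CPM, and neither was at 0 in any tumour. The hepatocyte marker Alb varied from 11 to 27943 CPM between tumours. A hepatocyte score, the mean log2 CPM of 15 liver genes, lay between -0.53 and 12.01. A like score of 11 macrophage genes lay between 5.89 and 8.85. These scores are printed beside the results they move with. In whole tumours, fewer cells of a type and less RNA per cell cannot be told apart.

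Sequences near the start sites of the members are shown here because STAT3 and AP-1, the factor made of Fos and Jun proteins, are well known to act on promoters of this family. RefSeq windows of 250 bases before a start (build GRCm38.p6) were found for 9 of the 10 members, in 11 windows. They were searched on both strands for a STAT-type motif (TTCNNNGAA), an AP-1 motif (TGAGTCA, which reads TGACTCA on the other strand) and a cAMP response element (TGACGTCA). The capitals mark the motif, and bases that lie in an annotated exon were left out. The Il11 window precedes a start that lies within an intron of longer transcripts.
Il6, chr5:30012864-30013113, plus strand: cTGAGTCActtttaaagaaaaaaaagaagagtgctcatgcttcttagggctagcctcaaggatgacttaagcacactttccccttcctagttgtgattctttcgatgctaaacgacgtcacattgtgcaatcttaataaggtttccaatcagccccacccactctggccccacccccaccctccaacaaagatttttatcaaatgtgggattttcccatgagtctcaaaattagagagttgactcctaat
Il11, chr7:4778142-4778391, minus strand: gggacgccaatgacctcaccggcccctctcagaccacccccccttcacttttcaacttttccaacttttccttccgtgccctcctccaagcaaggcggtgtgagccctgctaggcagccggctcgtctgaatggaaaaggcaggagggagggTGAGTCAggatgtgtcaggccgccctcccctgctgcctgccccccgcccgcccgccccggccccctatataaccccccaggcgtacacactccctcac
Lif, chr11:4257318-4257556, plus strand: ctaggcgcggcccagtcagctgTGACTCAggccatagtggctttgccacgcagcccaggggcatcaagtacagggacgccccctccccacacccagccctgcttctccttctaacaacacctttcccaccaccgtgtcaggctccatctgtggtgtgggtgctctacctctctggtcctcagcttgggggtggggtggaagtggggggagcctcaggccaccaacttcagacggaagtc
Socs3, chr11:117969452-117969616, minus strand: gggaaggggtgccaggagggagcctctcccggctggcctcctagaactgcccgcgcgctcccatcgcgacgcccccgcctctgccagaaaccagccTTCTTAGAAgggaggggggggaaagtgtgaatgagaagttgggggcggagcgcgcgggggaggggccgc

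The STAT-type motif was in 1 of the 11 windows, that of Socs3, at -154 from the start, and in 7.02% of the 32851 windows of all genes. The AP-1 motif was in 3 of the 11 windows, those of 3 ligands: at the far end of the window in Il6, at -98 in Il11 and at -228 in Lif, counted from the start. It was in 4.46% of all windows. The cAMP response element was in 0 of the 11 windows and in 1.55% of all. Only the full string TGACGTCA was counted, not variants of it. The Il6 window holds cgacgtca, which differs from it in the first base. A match is a string of letters and not a measured binding site.

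In the 11 vehicle tumours, Socs3, Il6st and Stat3 were the most abundant members and Osm and Il6 the least, with the other ligands and receptors mixed between them. Levels were compared per length as log2 RPKM (CPM per kilobase of exon), with scaling done separately in each experiment. Socs3 was highest, at 5.02 ± 0.46 log2 RPKM (SD, n = 11), followed by the shared receptor Il6st at 4.88 ± 0.37 and Stat3 at 4.18 ± 0.45. Then came Il6ra, the IL-6 receptor, at 3.19 ± 0.47 log2 RPKM, Lif, the leukaemia inhibitory factor, at 2.56 ± 0.84, and Osmr, the oncostatin M receptor, at 2.41 ± 0.66. Il11 stood at 1.76 ± 0.60, Lifr, the LIF receptor, at 1.48 ± 0.46, Osm, oncostatin M, at 0.84 ± 0.90 and Il6 at -0.99 ± 1.46 log2 RPKM. Socs3 and Il6st differed by less than the larger of their SDs, and so did each neighbouring pair from Il6ra down to Osm. The steps from Il6st to Stat3, from Stat3 to Il6ra and from Osm to Il6 were larger than that.

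**Figure D1:**
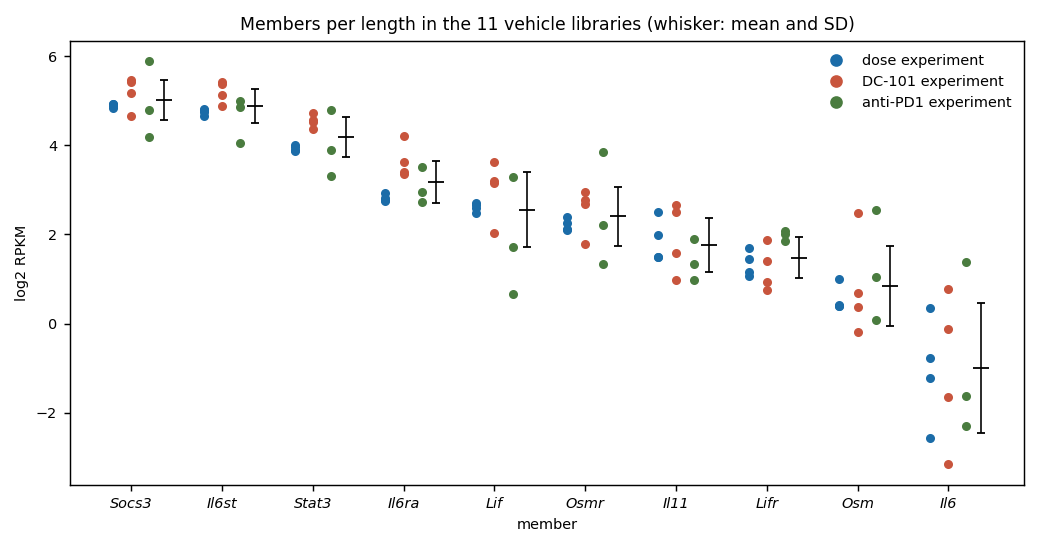
Each point is the log2 RPKM of a member in a vehicle tumour, coloured by experiment, and the black bar and whisker give the mean and SD over the 11 tumours. Socs3 and Il6st stand highest, and Il6 is lowest and most spread.

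Il6, the founding cytokine, was also the least steady member. Its raw counts ran from 0 to 252 in the 32 tumours, and its SD within groups was 1.60 on the log2 CPM scale, against 0.36 for Il6st, the steadiest. In the DC-101 experiment a single group, low dose, held both 3.53 and -0.59 log2 CPM. Changes of Il6 can therefore be measured only coarsely in these groups. The SDs within groups of the other 8 members were between 0.43 (Stat3) and 0.78 (Osmr).

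**Figure D2:**
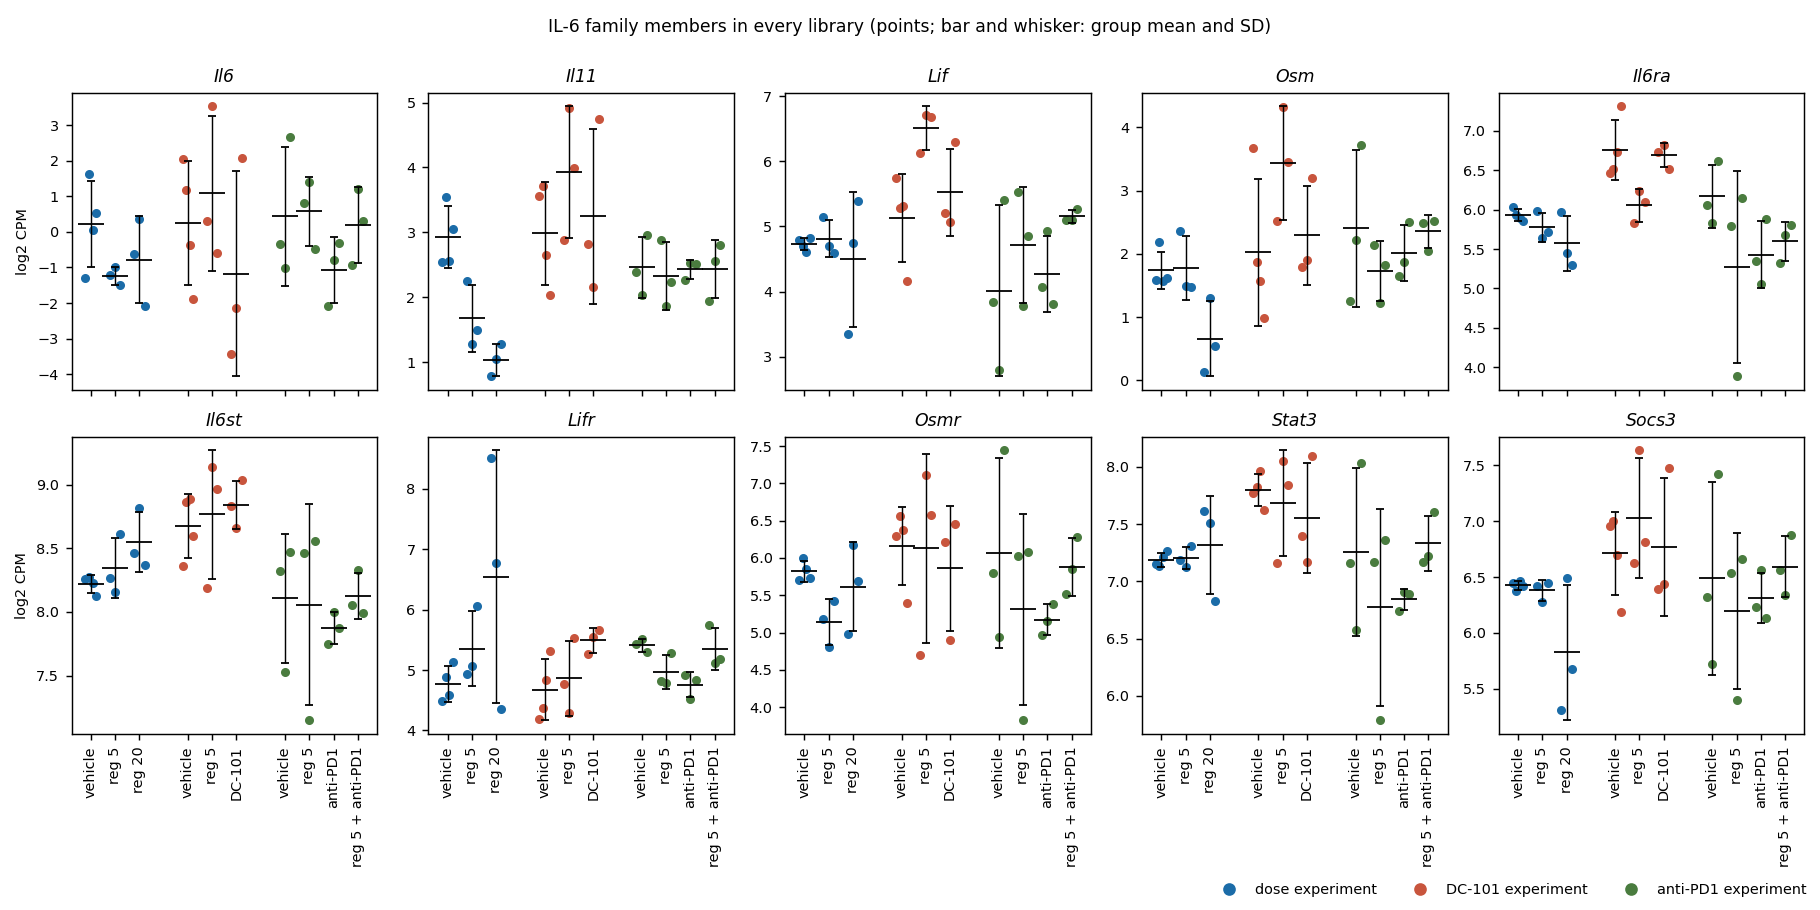
Each panel shows log2 CPM of a member in every tumour, grouped by treatment within the 3 experiments (reg 5 and reg 20 are regorafenib in mg/kg/day), with the group mean and SD as bar and whisker. Il11 is lower in the treated groups of the dose experiment, and Lifr reaches 8.52 in 1 high dose tumour.

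The dose experiment addressed whether a higher amount of regorafenib acts differently from a lower one. High dose regorafenib went with a lower level of the ligand Il11 and a higher level of the receptor Lifr. These were the only 2 of 10 members past an adjusted p of 0.05 (edgeR quasi-likelihood test, Benjamini-Hochberg over all genes), where 15.6% of the 16525 genes tested passed. At an unadjusted p under 0.05 stood 3 members and 40.1% of all genes. The median change of the members was -0.23 on the log2 scale, against 0.02 over all genes. Counts scaled to plain library totals, instead of by the trimmed mean of M-values (TMM), moved that median of all genes to -0.13.

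Il11 (chr7:4772373-4782859, minus strand, GRCm38), a cytokine of stromal and epithelial cells that signals through gp130, was at 2.55, 3.55, 2.56 and 3.05 log2 CPM in the 4 vehicle tumours. The 3 high dose tumours had 0.78, 1.04 and 1.28 log2 CPM, all below every vehicle tumour. The low dose tumours had 2.25, 1.27 and 1.5 log2 CPM, also all below vehicle but overlapping with the high dose. In linear units the mean fell from 7.86 ± 2.78 CPM (SD, n = 4) in vehicle to 1.99 ± 0.36 CPM (SD, n = 3) at the high dose, a change of -1.97 ± 0.37 (SE) on the log2 scale (edgeR adjusted p = 0.0269). A score of 8 T cell genes was 1.38 to 2.85 at the high dose and 0.31 to 1.19 in vehicle. Il11 had r = -0.88 with it in this experiment, and 0.55 and -0.03 in the DC-101 and anti-PD1 experiments. A score of 9 carcinoma genes was 5.23 to 5.71 against 3.78 to 4.59, with r = -0.46 to Il11 in this experiment. The part of these genes in the change of Il11 was not tested.

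The call for Il11 was kept with DESeq2 (-1.94, adjusted p = 2.07e-05), voom (0.0294), the relative log expression (RLE) scaling (0.0289) and no filter on low counts (0.0401). It was lost when any vehicle tumour was left out, with edgeR adjusted p = 0.0673, 0.0645, 0.0692 and 0.0786 without vehicle replicates 1 to 4. It was also lost without low dose replicate 1 (adjusted p = 0.0504) and without high dose replicate 2 (adjusted p = 0.0574), and with counts scaled to plain library totals (adjusted p = 0.0511). With the replicate number as a term of the fit it was lost as well (adjusted p = 0.192). It was kept without low dose replicate 2 or 3 (0.0456 and 0.0399) and without high dose replicate 1 or 3 (0.0437 and 0.0107). Over all refits that left out 1 tumour, the change stayed between -2.15 and -1.71 on the log2 scale. When the hepatocyte score was a term of the fit, it was -1.91 (adjusted p = 0.0944).

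Lifr (chr15:7090614-7197489, plus strand), the chain that pairs with gp130 for LIF and oncostatin M, was spread over more than 4 log2 units at the high dose. Its 3 high dose tumours had 8.52, 6.78 and 4.35 log2 CPM, against 4.49, 4.89, 4.58 and 5.13 in vehicle, so that replicate 3 was below all vehicle tumours and the groups overlapped. The fitted change was 2.58 ± 0.75 (SE) on the log2 scale (edgeR adjusted p = 0.0490). The hepatocyte score took the same order in these tumours, at 12.01, 9.53 and 6.45 for replicates 1 to 3, against 4.10 to 7.42 in vehicle. All 15 hepatocyte genes were higher at the high dose, with a median of 4.17 on the log2 scale. Of these 3 passed the threshold, where 15.6% of all genes did. The summed level of the 15 genes was 3012 to 97758 CPM against 1136 to 6496 CPM, and none was at 0. When the score entered the fit as a covariate, the change of Lifr was 0.04 (adjusted p = 0.984).

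Without high dose replicate 1, the tumour with the highest hepatocyte score, the change of Lifr was 1.22 (edgeR adjusted p = 0.199). The call was likewise lost without high dose replicate 2 (adjusted p = 0.0780), without low dose replicate 1 or 2 (0.0679 and 0.0642) and without vehicle replicates 1 to 4 (0.115, 0.103, 0.114 and 0.0884). It was lost with no filter on low counts (0.092), with library-total scaling (0.0701) and with voom, which gave 1.77 (0.168). With the replicate number as a term of the fit it was lost as well. It was kept without low dose replicate 3 (adjusted p = 0.0494) or high dose replicate 3 (0.0076), with RLE scaling (0.0487) and with DESeq2, which gave 2.61 (0.00255). High dose replicate 1 also had the highest mitochondrial share of counts, 5.37%, against 1.84% to 2.31% in vehicle. It had a TMM factor of 0.678, where the other tumours of the experiment had 0.973 to 1.1.

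Among the members that did not pass, Osm, a ligand made by macrophages and neutrophils, was at 0.14, 1.3 and 0.54 log2 CPM at the high dose. The 4 vehicle tumours had 1.59, 2.18, 1.58 and 1.61 log2 CPM, so the groups did not overlap. The change was -1.05 ± 0.39 (edgeR adjusted p = 0.0779), and DESeq2, which called 31.9% of all genes here, gave -1.01 with an adjusted p of 0.0373. The macrophage score was 5.89, 7.06 and 6.34 in the high dose tumours and 7.34 to 8.03 in vehicle, and so was lower where Osm was lower. Of the 11 macrophage genes 9 fell (edgeR), where 15.6% of all genes were called. No macrophage gene was at 0, and their summed level was 1004 to 2425 CPM against 2936 to 4815 CPM. The neutrophil score was 1.71 to 2.96 against 1.21 to 2.31 in vehicle, while the summed level of its genes was 99.8 to 164 CPM against 143 to 241 CPM, with 0 of 9 tested genes called and none at 0. The part of either in the result was not tested.

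Il6st was slightly higher in every high dose tumour, at 8.46, 8.81 and 8.36 log2 CPM against 8.12 to 8.28 in vehicle. The change was 0.34 ± 0.16 (edgeR adjusted p = 0.139). With Il11 and Osm this made 3 of 10 members whose groups did not overlap, where 28.3% of all genes did not. Socs3 was at 5.31, 6.49 and 5.68 log2 CPM against 6.37 to 6.46 in vehicle, with replicate 2 above the rest. Without replicate 2 its change was -0.91 (adjusted p = 0.0266). Stat3 lay at 7.62, 7.51 and 6.83 log2 CPM against 7.13 to 7.26. Without high dose replicate 3 its change was 0.33 (edgeR adjusted p = 0.0479), in a refit that called 7030 genes against 2582 with all tumours. Over all refits without single tumours, 15 to 7030 genes were called.

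Low dose regorafenib in the same experiment gave 0 members past the threshold, as for all genes (edgeR, 0% called), with 3 members and 4.94% of all genes at an unadjusted p under 0.05. DESeq2 called 85 genes and 0 members. The 3 members were Il11, at -1.27 ± 0.36, Il6, at -1.99 ± 0.81, and Osmr, at -0.66 ± 0.26 on the log2 scale (edgeR adjusted p = 0.795, 0.989 and 0.989). Osmr had 5.19, 4.81 and 5.43 log2 CPM at the low dose and 5.70, 6.0, 5.86 and 5.73 in vehicle. Il11 and Osmr were the 2 of 10 members whose groups did not overlap, all below vehicle, where 13.9% of all genes did not overlap and 6.99% were all below. All 10 endothelial genes were lower (median -1.08, 0 called), with scores of 3.33 to 3.92 against 4.06 to 5.10. All 11 macrophage genes were higher (median 0.75, 0 called). Il6, Osmr and Il11 had r = 0.86, 0.53 and 0.43 with the endothelial score in this experiment. In the other experiments they had -0.18 to 0.37. The part of these genes in the member values was not tested.

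The high dose was also set against the low dose directly. The test passed 4.22% of all genes and 0 of 10 members (edgeR), with 2 members and 29.3% of all genes at an unadjusted p under 0.05. Osm was lower at the high dose by a change of -1.12 ± 0.41 (edgeR adjusted p = 0.12), the only member whose groups did not overlap, where 27.8% of all genes did not. DESeq2, which called 18.5% of all genes here, passed Osm at -1.10 (adjusted p = 0.0485). Lifr differed by 1.92 ± 0.81 (edgeR adjusted p = 0.158). Without high dose replicate 3 the difference of Lifr was 2.38 (adjusted p = 0.0226), without high dose replicate 1 it was 0.56 (0.622), with voom 1.19 (0.369) and with the hepatocyte score as a term 0.12 (0.917). Socs3 passed without high dose replicate 2, at -0.88 (adjusted p = 0.0264). Refits of this comparison without single tumours called 62 to 4488 genes, against 697 with all tumours. The difference of Il11 between the doses was -0.71 ± 0.38 on the log2 scale (adjusted p = 0.229).

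**Figure D3:**
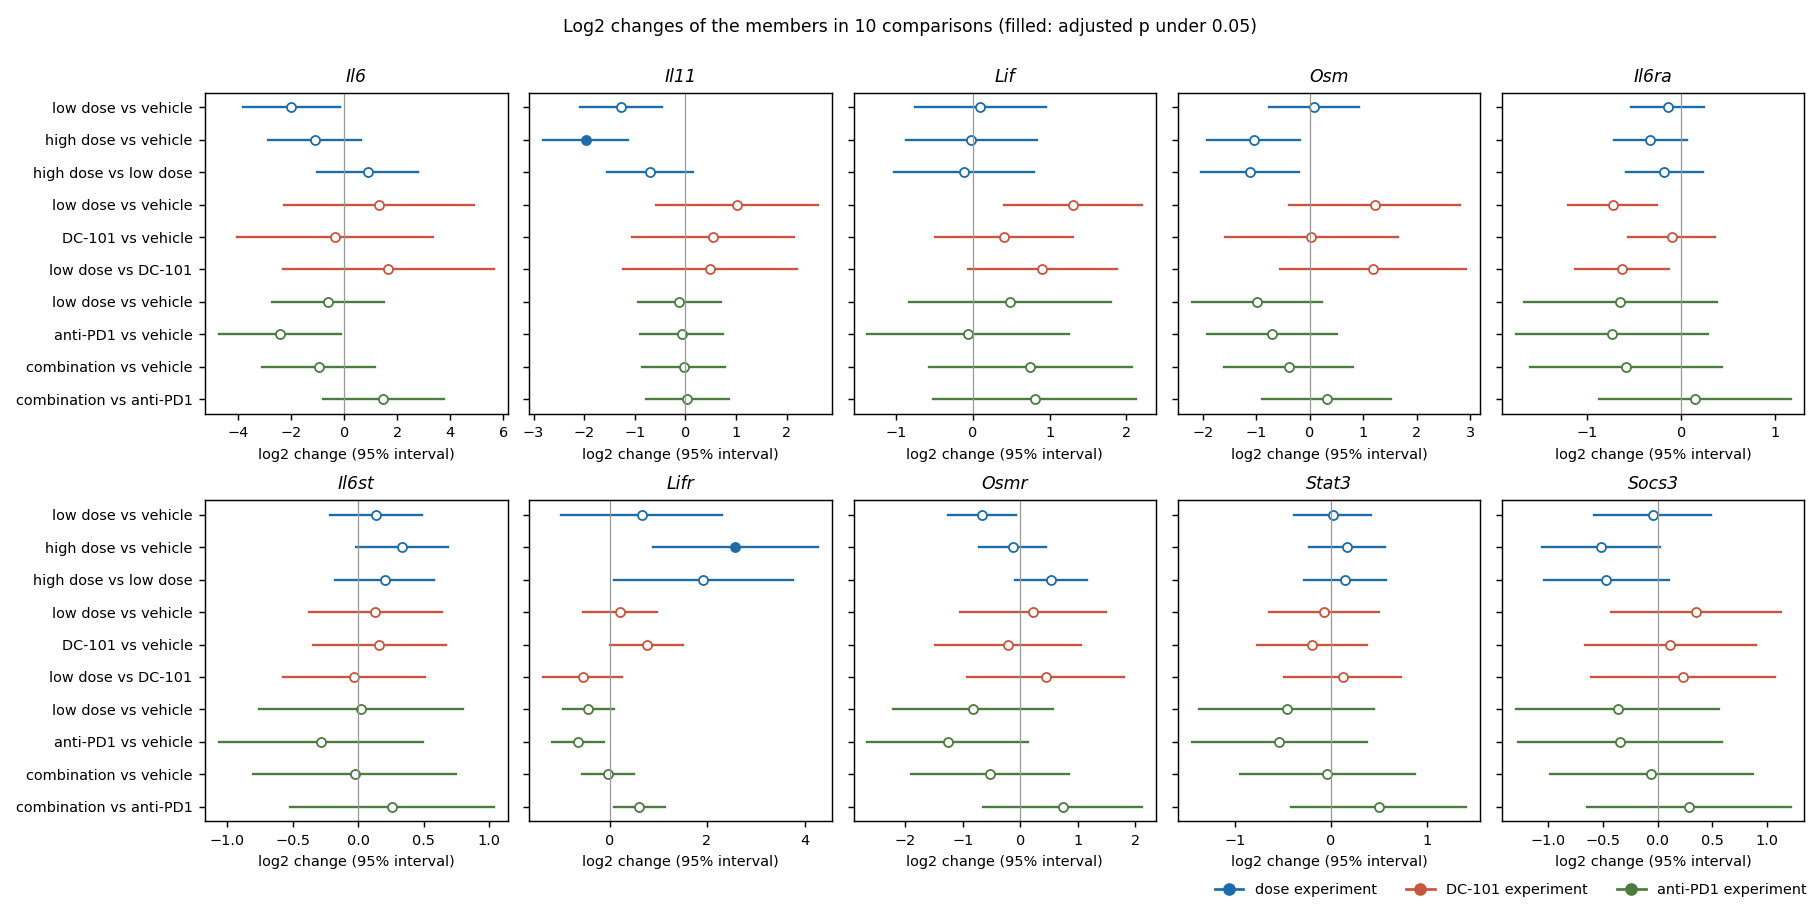
Points are log2 changes from the edgeR fits and lines their 95% intervals, with a panel for each member and a row for each comparison, coloured by experiment; filled points have an adjusted p under 0.05. The 2 filled points are Il11 and Lifr in high dose against vehicle, and the intervals of Il6 are the widest.

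The DC-101 experiment set low dose regorafenib beside a pure block of VEGFR2. Low dose regorafenib was accompanied by more Lif and less Il6ra than vehicle, neither past the edgeR threshold. The test called 0 of 10 members and 0.0248% of 16138 genes, with 2 members and 17.1% of all genes at an unadjusted p under 0.05. Lif, a ligand that acts through Lifr and gp130, had 6.12, 6.72 and 6.69 log2 CPM at the low dose and 5.75, 5.28, 5.31 and 4.16 in vehicle. Every treated tumour was above every vehicle tumour, with a change of 1.31 ± 0.40 (edgeR adjusted p = 0.169). Il6ra, which confers binding of IL-6 itself, had 5.83, 6.24 and 6.10 log2 CPM against 6.47, 6.52, 6.73 and 7.31, a change of -0.73 ± 0.21 (edgeR adjusted p = 0.156).

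DESeq2, which called 6.8% of all genes, passed both, with adjusted p = 0.0224 for Lif and 0.022 for Il6ra. They were 2 of 10 members without overlap, where 16.4% of all genes had none. Il6ra was also lower at the low dose than under DC-101, whose tumours had 6.73, 6.82 and 6.52 log2 CPM. That difference was -0.63 ± 0.22 (edgeR adjusted p = 0.492), the only member without overlap there, where 11.4% of all genes had none. The hepatocyte score was 5.31 to 8.67 at the low dose, 1.16 to 9.50 under DC-101 and -0.53 to 6.32 in vehicle. All 9 tested neutrophil genes were higher at the low dose than in vehicle (median 1.53, 0 called), with scores of 2.28 to 4.02 against 0.75 to 2.72, summed levels of 231 to 502 CPM against 143 to 354 CPM and at most 2 genes at 0 in a tumour. All 10 endothelial genes were lower (median -1.49, 0 called), with scores of 3.22 to 3.78 against 4.21 to 5.41, summed levels of 136 to 180 CPM against 268 to 608 CPM and none at 0. Within this experiment Lif had r = 0.86 and Il6ra r = -0.69 with the neutrophil score (10 tumours, treatment groups not removed). In the dose and anti-PD1 experiments these values were -0.64 and 0.26 for Lif and -0.05 and 0.59 for Il6ra. Over all alternatives, which included the hepatocyte score as a term of the fit, the change of Lif was 1.03 to 1.53 and that of Il6ra -0.83 to -0.51. The part of the neutrophil and endothelial genes in the values of Lif and Il6ra was not tested.

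DC-101 against vehicle called 0 members and 0% of all genes with edgeR. At an unadjusted p under 0.05 stood 1 member and 13.2% of all genes, and DESeq2 called 372 genes and 0 members. That member was Lifr, at 5.26, 5.55 and 5.67 log2 CPM under DC-101 and 4.19, 4.36, 4.83 and 5.31 in vehicle, a change of 0.76 ± 0.33 (edgeR adjusted p = 0.374). Vehicle replicate 4 overlapped the DC-101 tumours, and no member was free of overlap, where 13.4% of all genes were. Low dose against DC-101 called 0 members and 0% of genes, with 1 member and 8.45% of all genes at an unadjusted p under 0.05. DESeq2 called 187 genes and 0 members there.

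The anti-PD1 experiment asked what regorafenib adds to an immune checkpoint antibody. None of the 4 comparisons called a member or any of 16615 genes with edgeR (0% called). At an unadjusted p under 0.05 stood 11.8% of all genes for the low dose, 13.7% for anti-PD1, 8.2% for the combination and 8.68% for the combination against anti-PD1. The members at that level numbered 0, 2, 0 and 1. DESeq2 called 435, 614, 150 and 192 genes and 0 members. What follows are differences that did not pass.

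All 10 members had a lower fitted level under anti-PD1 than in vehicle, with a median change of -0.59 on the log2 scale, against -0.06 over all genes. This count rests on the fitted scale, since the mean log2 CPM of Lif was 4.27 under anti-PD1 and 4.02 in vehicle. The combination was set against the same anti-PD1 tumours, and there all 10 members were higher, with a median of 0.41, against 0.00 over all genes. Since both comparisons share the 3 anti-PD1 tumours, these directions are not separate evidence. For Lifr the anti-PD1 tumours had 4.91, 4.52 and 4.84 log2 CPM, below the 5.43, 5.51 and 5.29 of vehicle and below the 5.75, 5.11 and 5.18 of the combination. Its changes were -0.65 ± 0.24 (edgeR adjusted p = 0.288) against vehicle and 0.61 ± 0.24 (adjusted p = 0.507) for the combination against anti-PD1.

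Il6 was the other member under anti-PD1 with an unadjusted p under 0.05, at -2.43 ± 1.05 (edgeR adjusted p = 0.341). It rested on vehicle replicate 3, which had 2.66 log2 CPM where the other vehicle tumours had -0.34 and -1.01. Without that tumour the change was -0.30 (adjusted p = 0.923). The same tumour was the highest of its experiment for 7 of 10 members: Il6, Il11 (2.95 log2 CPM), Il6ra (6.62), Osm (3.73), Osmr (7.44), Stat3 (8.04) and Socs3 (7.43). The lower levels of these members under anti-PD1 are therefore measured against a vehicle group that holds this tumour.

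In the combination against anti-PD1, 4 of 10 members did not overlap, all higher, where 30.4% of all genes did not overlap and 16% were higher. They were Lif, Lifr, Osmr and Stat3. Stat3 was at 7.17, 7.22 and 7.61 log2 CPM against 6.74, 6.90 and 6.89, a change of 0.50 ± 0.42 (edgeR adjusted p = 0.781). Osmr was at 5.51, 5.85 and 6.28 log2 CPM against 4.97, 5.15 and 5.38, a change of 0.73 ± 0.63 (edgeR adjusted p = 0.788). Lif was at 5.10, 5.10 and 5.27 log2 CPM against 4.07, 4.93 and 3.81, a change of 0.81 ± 0.60 (edgeR adjusted p = 0.756). Of 10 fibroblast genes 8 were higher in the combination than under anti-PD1 (median 0.39, 0 called), with scores of 8.31 to 9.07 against 8.21 to 8.66, summed levels of 12010 to 21389 CPM against 10721 to 12570 CPM and none at 0. Their part in the values of Osmr and Stat3 was not tested.

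The tumours of these groups also differed otherwise. The hepatocyte score was 3.97 to 5.70 under anti-PD1, 6.21 to 9.30 in the combination and 7.58 to 7.99 in vehicle. The mitochondrial share of counts was 0.37% to 0.68% under anti-PD1 and 1.36% to 2.34% in the combination. All 8 T cell genes were higher in the combination than under anti-PD1 (median 1.78, 0 called), with scores of 2.01 to 3.16 against 0.45 to 1.34. Of 6 B and plasma cell genes 5 were higher (median 2.94, 0 called), with scores of 0.56 to 1.97 against -1.12 to -0.86. The part of the T cell genes or of the B and plasma cell genes in the member values was not tested. The alternatives for the combination against anti-PD1 included the hepatocyte score as a term of the fit. Over all of them the log2 change of Lif was 0.60 to 1.21 and that of Lifr 0.38 to 0.73. Those of Osmr and Stat3 were 0.51 to 1.23 and 0.35 to 0.88. Vehicle replicate 2 and low dose replicate 2 had the lowest mitochondrial shares, 0.26% and 0.312%, and the lowest values of Il6st (7.53 and 7.15 log2 CPM) and Stat3 (6.57 and 5.79) in the experiment. They also had the lowest fibroblast scores, 8.07 and 7.04, and within this experiment Il6st had r = 0.91 and Stat3 r = 0.90 with that score (12 tumours). Low dose replicate 2 was also the lowest for Il6ra, at 3.89 log2 CPM, where the other low dose tumours had 5.79 and 6.15.

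Against vehicle, low dose regorafenib in this experiment left 1 of 10 members without overlap, where 14% of all genes had none. This was Lifr, at 4.82, 4.79 and 5.28 log2 CPM, all below vehicle, with a change of -0.43 ± 0.24 (edgeR adjusted p = 0.526). Anti-PD1 likewise left 1 member without overlap, Lifr, where 16.6% of all genes had none. The combination against vehicle left Il6ra, at 5.32, 5.67 and 5.80 log2 CPM against 6.06, 5.84 and 6.62, a change of -0.59 ± 0.47 (edgeR adjusted p = 0.743), where 17.7% of all genes had no overlap.

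Low dose regorafenib was the only treatment given in all 3 experiments, so it was also tested over all 20 low dose and vehicle tumours with the experiment as a term. The fit called 1.77% of 15562 genes and 0 of 10 members (edgeR), with 2 members and 16% of all genes at an unadjusted p under 0.05. DESeq2 called 892 genes and 0 members. Il6ra had a change of -0.50 ± 0.21 (edgeR adjusted p = 0.246) and Lif of 0.65 ± 0.29 (adjusted p = 0.284). In the separate fits the changes of Il6ra were -0.15 in the dose experiment, -0.73 beside DC-101 and -0.65 beside anti-PD1. Those of Lif were 0.10, 1.31 and 0.48. Both members thus had the same sign in the 3 experiments, none of them past the edgeR threshold. In the fit over all experiments 7 of 10 endothelial genes fell, with a median change of -1.23 on the log2 scale and none at 0. Il6ra had r = 0.32, 0.56 and 0.61 with the endothelial score within the dose, the DC-101 and the anti-PD1 experiment. The part of endothelial content in the change of Il6ra was not tested.

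Il11 had the smallest p of the members for a difference between experiments, with changes of -1.27, 1.02 and -0.12 in the same order of experiments. The edgeR test of a difference between experiments gave Il11 an adjusted p of 0.452, from 0.0144 before adjustment, and the other 9 members had an unadjusted p above that. It called 0% of 15562 genes, with 1 member and 9.52% of all genes at an unadjusted p under 0.05, while DESeq2 called 96 genes and 0 members.

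Of the other receptors and ligands of the family, 11 genes were listed and 7 to 9 were tested in a fit. Il11ra1, the specific receptor of IL-11, rose at the high dose by a change of 1.31 ± 0.20 (edgeR adjusted p = 0.0187), and every high dose tumour was above vehicle. It was the only 1 of 8 tested genes of this list past the threshold there, where 15.6% of all genes passed and 28.3% had no overlap. Its ligand Il11 moved the other way in the same tumours. At the low dose of that experiment Il11ra1 had a change of 0.76 ± 0.20 (edgeR adjusted p = 0.738). Ctf1, cardiotrophin, was the only gene of the list past the threshold over all 3 experiments, higher at the low dose by 0.56 ± 0.14 (edgeR adjusted p = 0.0486). There 1.77% of all genes passed. Cntfr, the receptor of ciliary neurotrophic factor, had the smallest unadjusted p of the list under anti-PD1, with a change of -4.15 ± 1.07 (edgeR adjusted p = 0.249).

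Among 19 kinases, transcription factors, phosphatases and other components of JAK-STAT signalling, 2 rose and 3 fell at the high dose (edgeR), where 15.6% of all genes were called. Stat4, a factor of lymphocytes, rose by 1.88 ± 0.43 (adjusted p = 0.0365) and Stat2, a factor of interferon signalling, by 1.09 ± 0.28 (adjusted p = 0.042). Markers of lymphocytes were higher too: 4 of 8 T cell genes and 3 of 6 B and plasma cell genes rose (edgeR). The T cell score was 1.38 to 2.85 at the high dose and 0.31 to 1.19 in vehicle, with summed levels of 23.9 to 60.3 CPM against 11 to 20.8 CPM and none at 0. The score of B and plasma cells was -1.09 to 4.44 against -1.32 to -0.79, with 3.49 to 496 CPM against 2.67 to 4.05 CPM and none at 0. Their part in the value of Stat4 was not tested. Adam10 and Adam17, the proteases that shed the IL-6 receptor from the cell surface, fell by 0.83 and 0.71 on the log2 scale (adjusted p = 0.032 and 0.0324). Ptpn6, the phosphatase SHP-1 of blood cells, fell by 0.80 (adjusted p = 0.034). The median change of the list was 0.14, against 0.02 over all genes.

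Ptpn6, Adam17 and Adam10 were also the 3 of 19 that fell from the low to the high dose, by 1.32, 0.86 and 0.82 on the log2 scale (edgeR adjusted p = 0.0105, 0.0256 and 0.0431), where 4.22% of all genes were called. The mean macrophage score was 7.75 in vehicle, 8.47 at the low and 6.43 at the high dose, and 9 of 11 macrophage genes fell from the low to the high dose. Its part in the values of Ptpn6 was not tested. Over the 3 experiments Ptpn6 was the only gene of the list that passed at the low dose, where it rose by 0.59 ± 0.13 (edgeR adjusted p = 0.029). In that fit 1.77% of all genes passed. In the other comparisons 0 of 19 passed with edgeR, with 1 to 4 at an unadjusted p under 0.05.

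Of 14 known STAT3 target genes, 2 fell at the high dose and 0 rose (edgeR), a share near the 15.6% of all genes called. They were Timp1, an inhibitor of metalloproteinases, by 1.49 on the log2 scale (adjusted p = 0.0143), and Junb, a subunit of AP-1, by 0.93 (adjusted p = 0.0396). Il4ra, the IL-4 receptor, fell from the low to the high dose by 0.93 (adjusted p = 0.0375), where 4.22% of all genes were called. The list's median change at the high dose was -0.21. In all other fits 0 of 14 passed, with 0 to 3 at an unadjusted p under 0.05.

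The 20 hepatic acute phase genes, the classical liver readout of IL-6, had the direction of the hepatocyte score in most comparisons. All 20 were higher at the high dose, with a median of 2.31 on the log2 scale, but only C3, the complement component, passed, by 2.64 ± 0.76 (edgeR adjusted p = 0.0484). There 15.6% of all genes passed. In the DC-101 experiment the median was 3.07 for the low dose and 3.17 for DC-101, with 20 and 18 of 20 higher and 0 past the threshold. The same low dose had 17 of 20 higher in the dose experiment, with a median of 0.72, but 19 of 20 lower in the anti-PD1 experiment, with a median of -1.51 and 0 past the threshold in both. Under anti-PD1 all 20 were lower, with a median of -1.74, and 19 of 20 were higher in the combination than under anti-PD1, with a median of 1.69, again with 0 past the threshold. Saa3, a serum amyloid, had a change of -5.04 ± 1.11 under anti-PD1 (edgeR adjusted p = 0.249).

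The hepatocyte score had group means of 5.79 in vehicle and 9.33 at the high dose of the dose experiment. They were 1.99 in vehicle, 7.16 at the low dose and 6.25 under DC-101 in the DC-101 experiment, and 7.78 in vehicle, 4.98 under anti-PD1 and 7.36 in the combination in the anti-PD1 experiment. The part of liver content in the acute phase values was not tested. Il6 itself followed the hepatocyte score little, with a Pearson r of 0.17 over the 32 tumours after centring each experiment.

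A signature of IL-6 that the study had curated from the literature held 17 genes, of which 15 were tested. At the high dose 2 rose, C3 and the interferon-induced GTPase gene Gbp2 (1.01 ± 0.29, edgeR adjusted p = 0.0477), where 15.6% of all genes were called, with 10 higher, 5 lower and a median of 0.77. All 15 were higher at the low dose of the DC-101 experiment, with a median of 1.62 and 0 past the threshold. The low dose of the dose experiment had 9 higher and 6 lower, with a median of 0.45, and that of the anti-PD1 experiment had 12 of 15 lower, with a median of -1.46, again with 0 past the threshold. Ifitm3, an interferon-induced membrane protein, was the closest in the DC-101 experiment, at 0.97 ± 0.21 (edgeR adjusted p = 0.0992). Under anti-PD1 12 of 15 were lower, with a median of -1.40, again with 0 past the threshold. Several genes of this signature are liver genes, and C3, Cebpd, Lcn2 and Serpina3n are also in the acute phase list. S100a8 and S100a9 are also among the neutrophil genes. The median change of the 9 tested neutrophil genes was 1.53 at the low dose of the DC-101 experiment, -1.54 at the low dose of the anti-PD1 experiment and -1.46 under anti-PD1, but 0.11 at the low and -0.29 at the high dose of the dose experiment, with 0 called in each. The part of neutrophil or liver content in the signature was not tested.

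Across tumours several members varied together. Over all 45 pairs of members, the Pearson r of log2 CPM centred on each experiment lay between -0.43 and 0.83 (32 tumours that differ in depth and liver content; treatment groups were not removed, so these values are descriptions). It was above 0.5 in 19 pairs and below 0 in 8. Above 0.5 within each of the 3 experiments were 4 pairs. They were Osm with Socs3 (r = 0.75), Il11 with Osm (0.72), Il11 with Socs3 (0.68) and Il6st with Stat3 (0.77). The highest r, 0.83 between Osmr and Stat3, was 0.87 and 0.98 in the DC-101 and anti-PD1 experiments and -0.08 in the dose experiment. Lifr stood apart, with r below 0 with 6 of the other 9 members.

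**Figure D4:**
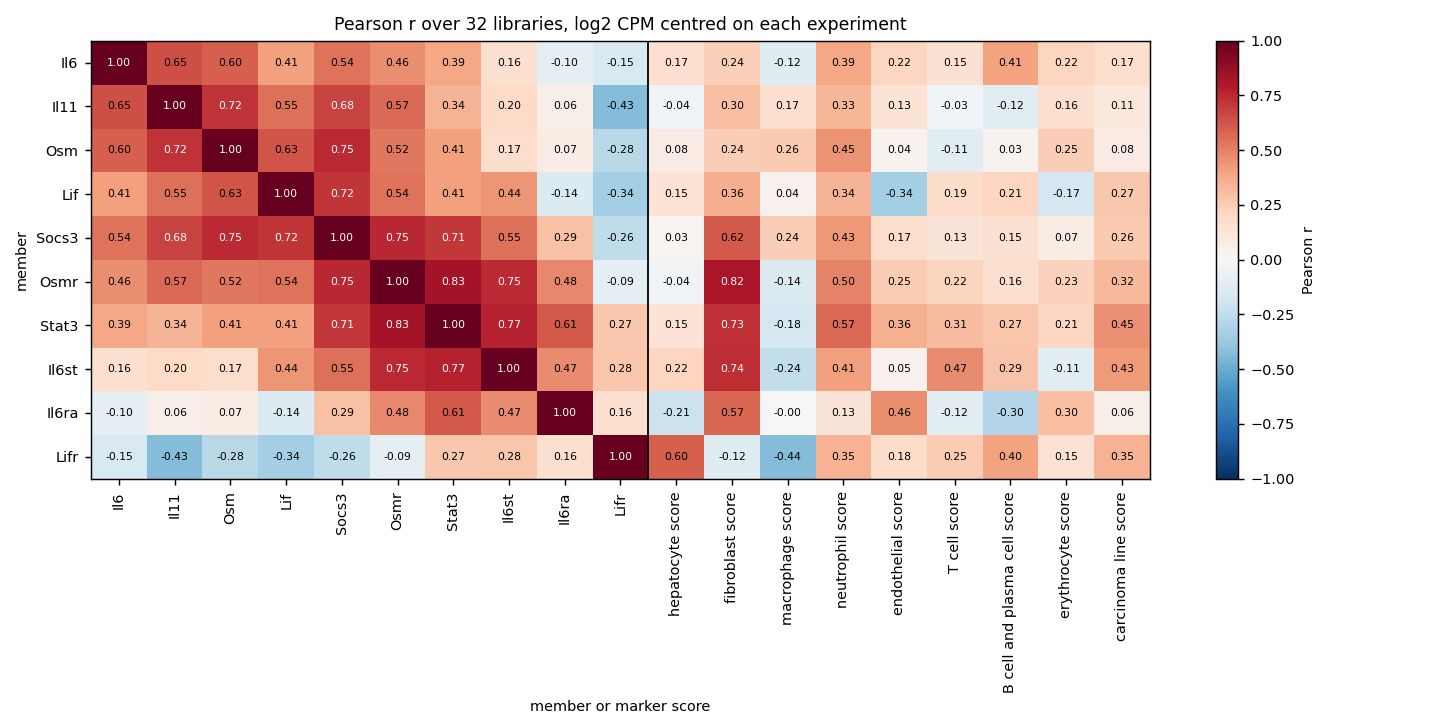
Cells give Pearson r over 32 tumours between members (left of the line) and between members and marker scores (right), after centring log2 CPM on each experiment; red is positive and blue negative. Il11, Osm, Lif and Socs3 share positive values, Osmr, Stat3 and Il6st follow the fibroblast score, and Lifr follows the hepatocyte score.

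The receptors also followed markers of different cell types. Osmr moved with a score of 10 fibroblast genes, with r = 0.82 over all tumours and 0.79, 0.73 and 0.89 within the 3 experiments, dose first and anti-PD1 last. Without the 2 tumours farthest from the median score it was 0.71. Il6st had r = 0.74 and Stat3 0.73 with the fibroblast score, although within the dose experiment these were 0.39 and -0.20. There Il6st had r = 0.75 with the score of B and plasma cells and 0.74 with the T cell score.

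Lifr moved with the hepatocyte score, with r = 0.60 over all tumours and 0.93, 0.46 and 0.56 within the 3 experiments. In the dose experiment it was 0.84 without high dose replicates 1 and 2, which were farthest from the median score. In the anti-PD1 experiment the same removal took it from 0.56 to 0.34, and in the DC-101 experiment it gave 0.52. Osm and the macrophage score had r = 0.80 within the dose experiment, but 0.22 there without high dose replicates 1 and 3, and -0.14 and -0.25 in the other experiments.

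**Figure D5:**
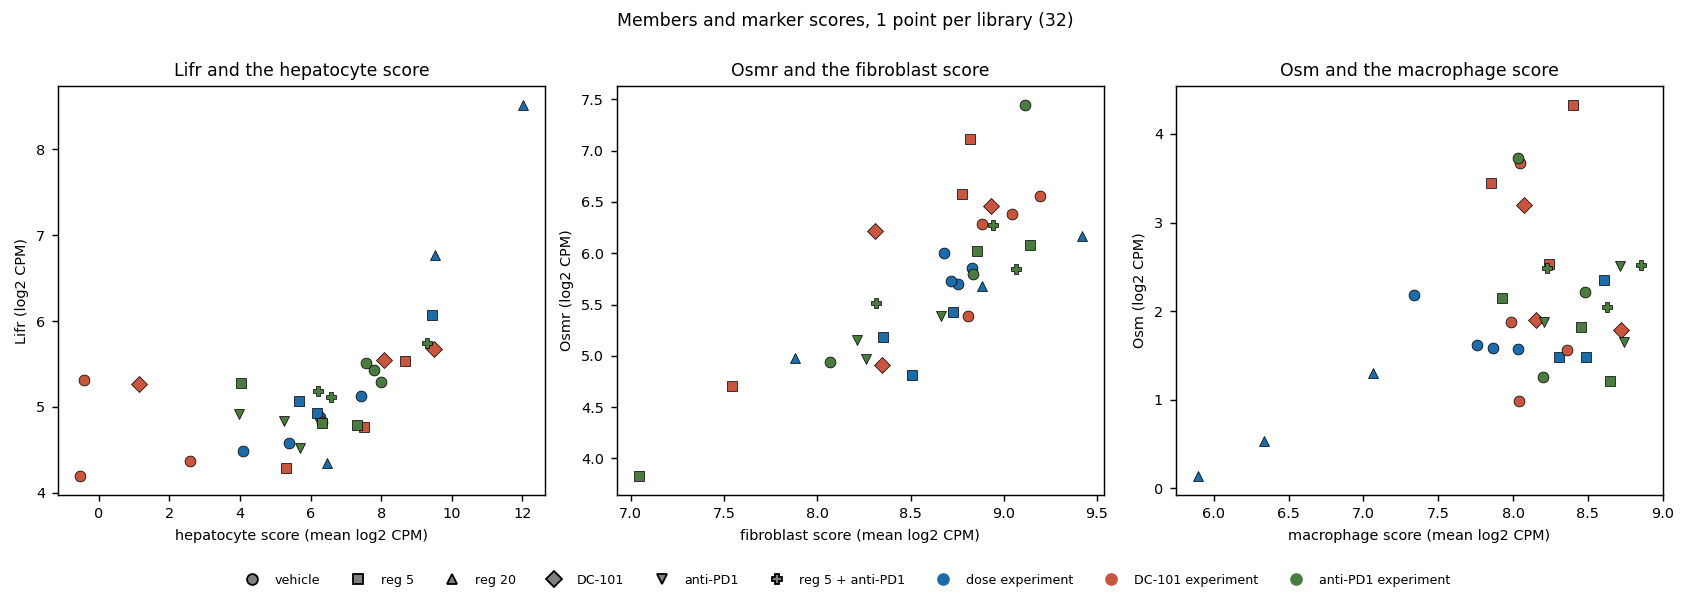
Each point is a tumour, with a marker score (mean log2 CPM of its genes) on the horizontal axis and a member's log2 CPM on the vertical axis, coloured by experiment and shaped by treatment. Lifr is highest at the high hepatocyte scores, Osmr climbs with the fibroblast score, and the high dose tumours lie at the low end of the macrophage score.

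Among 15428 genes tested in all 3 experiments, the genes most like each member over the 32 tumours were as follows. Il6 was most like Serpinb2 (r = 0.91), Tnfaip6 and Il33. Il11 was most like the growth factor gene Ereg (r = 0.89), Timp1 and the cytokine gene Il1b. Lif was most like Noct (r = 0.91), Rnf165 and the AP-1 gene Fosl1, and Osm was most like Cd44 (r = 0.84), Fos and Csrnp1. Among the receptors, Il6ra was most like Klf13 (r = 0.89), Washc2 and Fkbp15, and Il6st like Arhgef10 (0.85), Parp4 and Vps13d. Lifr was most like Csad (r = 0.93), Prkd3 and Dcaf11, and Osmr like Fndc3b (0.89), Nr4a3 and Arrb1. Stat3 was most like Iqsec1 (r = 0.92), Cmip and Tmc8. Socs3 was most like Zc3h12a (r = 0.88), which encodes the RNase regnase-1, Csf3r, the receptor of granulocyte colony-stimulating factor, and Plekho2.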

How the data were processed

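RNA was extracted from tumours, frozen per the labels and fresh per the study's methods, and made into stranded mRNA libraries, sequenced as paired reads. The authors trimmed adapters (cutadapt 2.4), aligned to GRCm38 (STAR 2.7.2a) and deposited raw counts per Gencode M19 gene. The strand column taken is not given in the sources used here. Symbols and coordinates came from Gencode M21 on the same build and matched 54409 of 54446 identifiers (99.93%). Groups came from the labels.

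Each experiment was fitted with all its groups in edgeR 4.0.16 (R 4.3.3): filterByExpr (minimum count 10, total 15), TMM, robust quasi-likelihood F-test, 2-sided, Benjamini-Hochberg over all genes, threshold 0.05. Log2 CPM used a prior count of 2. Fitted log2 changes and differences of mean log2 CPM are different quantities. Totals of 16.8 M to 27.7 M set the precision, and reads carried no molecular identifiers. Libraries of a group differed beyond sampling noise (chi-square per degree of freedom at least 14 in 36 pairs). Alternatives were DESeq2 1.42.0, voom in limma 3.58.1, other scalings, no filter, a replicate block, the hepatocyte score as covariate and leaving out single tumours or experiments. The scripts were tested on simulated data. The members, the gene lists and the alternatives were chosen with earlier results of these data known. Genes named were the members, up to 3 per list and direction past the threshold, otherwise up to 2 with the smallest p, and the 3 most like each member.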

Additional observations from a re-analysis of the deposited data

Results flagged for a closer look

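Osm in the vehicle group of the dose experiment held a value far from the others: replicate 2 had 2.18 log2 CPM, where the other 3 tumours had 1.58 to 1.61. The gap was 0.939 of the group's range. The members were examined in 20 such groups of 4, and about 1 in 20 would be singled out by chance.

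The low dose change of Lifr pointed in opposite directions in different experiments. Every low dose tumour was above the vehicle mean in the dose experiment (0.66) and below it in the anti-PD1 experiment (-0.43). The edgeR test of a difference between the experiments gave an adjusted p of 0.576, from 0.0922 before adjustment. The hepatocyte score of low dose tumours was 5.68 to 9.44 against 4.10 to 7.42 in vehicle in the dose experiment, and 4.02 to 7.33 against 7.58 to 7.99 in the anti-PD1 experiment. Over all alternatives, which included this score as a term of the fit, the anti-PD1 change of Lifr lay between -0.61 and -0.34. The value of the dose experiment with that term is not given here.

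Osm also changed sign at the low dose, with every low dose tumour above the vehicle mean in the DC-101 experiment (1.21) and below it in the anti-PD1 experiment (-0.99). The same edgeR test gave an adjusted p of 0.572, from 0.0863 before adjustment. The DC-101 value was 2.13 without vehicle replicate 1 and 0.67 without low dose replicate 2. The anti-PD1 value rested on vehicle replicate 3, at 3.73 log2 CPM: without it the change of Osm was -0.03 (edgeR adjusted p = 0.989). The neutrophil genes had the same signs, with 9 of 9 higher in the DC-101 experiment (median 1.53) and 7 of 9 lower in the anti-PD1 experiment (median -1.54), 0 called in either. The neutrophil score of low dose tumours was 2.28 to 4.02 against 0.75 to 2.72 in vehicle in the former and 0.92 to 2.17 against 1.93 to 3.75 in the latter. Their part was not tested.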

How the results depend on the processing

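Of 673 alternative values of 31 member changes, 623 kept their direction and side of the threshold, 22 lost a call, 5 gained it and 23 reversed. DESeq2 called more genes: 85 for low dose, 5275 with 3 members for high dose and 3059 with 1 member for high against low in the dose experiment; 1097 with 2 members, 372 and 187 for low dose, DC-101 and their difference; 435, 614, 150 and 192 for low dose, anti-PD1, the combination and the combination against anti-PD1; 892 for low dose over all experiments and 96 for its difference between them. For high dose against vehicle (2582 genes, 2 members), no filter gave 416 genes and 1 member, total-count scaling 282 and 0, voom 1349 and 1, and the hepatocyte covariate 126 and 0. Leaving out single tumours gave 15 (without vehicle replicate 3) to 7030 genes (without high dose replicate 3) and 0 to 3 members. For high against low dose (697 genes, 0 members), no filter gave 309 and total-count scaling 198, and leaving out tumours gave 62 to 4488 genes and 0 to 1 members. No filter also gave 12 for low dose in the DC-101 experiment (4), where leaving out tumours gave 0 to 12, and 10 for low dose and 1 for the combination against vehicle in the anti-PD1 experiment. It gave 153 for low dose over all experiments (276), where leaving out tumours gave 158 to 313; without the dose experiment 63 genes passed and without the DC-101 experiment 17. For the difference between experiments leaving out tumours gave 0 to 2. The hepatocyte covariate gave 3 and 0 for low dose in the dose and DC-101 experiments, and 8 for both low dose and the combination against vehicle in the anti-PD1 experiment. The cause of these shifts was not tested.

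Among these 31 changes the reversals were in the low dose change over all experiments. Over all tested member changes, 140 of 2080 alternative values had the other sign, 94 of them without single tumours and 10 of 110 with the hepatocyte covariate. Socs3 (-0.00) was 0.0035 with no filter, 0.0074 with voom, 0.0039 without the dose experiment, 0.15 without the anti-PD1 experiment and -0.14 to 0.18 without single tumours. Without the dose experiment Il6 (-0.29) was 0.41, Il11 (-0.07) 0.48 and Lifr (0.18) -0.090, and without the DC-101 experiment Osm (0.17) was -0.41. Without single tumours Il6 ranged from -1.20 to 0.33, Il11 from -0.35 to 0.081, Lifr from -0.0013 to 0.26 and Osm from -0.081 to 0.48.

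Whether the replicate numbers pair the tumours cannot be decided from groups this small. Same-numbered tumours deviated together (r over 0.1) in 2 of 9, 4 of 9 and 6 of 18 pairs, dose first and anti-PD1 last. The r ranged from -0.72 to 0.56, from -0.46 to 0.67 and from -0.28 to 0.62. The replicate 3 pairs of the DC-101 experiment had r = 0.45, 0.67 and 0.63. With the replicate block, 1 gene and 0 members passed for high dose against vehicle, with adjusted p = 0.192 for Il11 and 0.215 for Lifr (edgeR). It left 1 gene for high against low dose, 0 for low dose in the DC-101 experiment and 178 for low dose over all experiments.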
